A study of Danio rerio with 2 samples.

Results

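Rab GTPases are small proteins that switch between a GTP-bound form on membranes and a GDP-bound form kept soluble by an inhibitor protein. Each Rab marks certain compartments of the secretory and endocytic pathways and recruits the tethers, motors and enzymes that move, dock and fuse vesicles there. Guanine nucleotide exchange factors (GEFs) switch a Rab on, GTPase-activating proteins (GAPs) switch it off, and a lipid anchor added to the tail of the protein holds it on membranes. In the embryo, Rabs serve epithelial polarity, the building of lumens and cilia, and the traffic of signalling receptors.

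The levels described here were measured in RNA that came down with a Flag-tagged Cpeb1b protein. Cpeb1b is a cytoplasmic polyadenylation element-binding protein, a family that binds the 3′ untranslated regions of mRNAs and controls their poly(A) tails and translation. The 2 samples form 1 group. Both are zebrafish embryos labelled wild type in genotype, injected with Flag-cpeb1b mRNA and collected at 16 h post-fertilization (hpf), during somite formation. Lysates were incubated with anti-FLAG M2 beads, and the RNA held on the beads was fragmented and sequenced (RNA immunoprecipitation sequencing, RIP-seq). The bait was supplied by injection into embryos whose own cpeb1b gene is intact, and how many embryos were pooled is not given in the labels. An input sample, a control precipitate and uninjected embryos were not analysed here, so every value is a level in the precipitate and none is an enrichment.

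Members were taken by name. Of 33737 genes in the deposited table, 66 had an Ensembl gene name that consists of "rab", a number and further letters or digits. Of these, 59 are Rab GTPases, and 7 carry the name of a Rab-binding protein that the same naming rule takes in (rab11fip1a, rab11fip1b, rab11fip3, RAB11FIP4, RAB3GAP2, RAB3IL1 and RAB5IF). The label Rab GTPase therefore fits 59 of the 66, and the 7 others are described apart. The 66 genes have 59 distinct names, because 6 names stand on several genes (13 genes in all), such as RAB7A on 3 and RAB5A on 2. Names in capitals, held by 47 members, are those of human genes and do not say which zebrafish copy is meant. The RefSeq gene table (assembly GRCz12tu) has 87 symbols of this form, 48 of which match a member by symbol. The Rab numbers 19, 21, 26, 28 and 31 of that table have no member and were not assessed here.

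The value of each gene is the authors' mean RPKM over both replicates, that is, reads divided by the length of the gene model and by the size of the library. RPKM is scaled to length, and levels of different genes are set side by side on it here, although the gene lengths used are not given. A gene at RPKM 1 or more is called detected here. The low values of the table rise in steps that correspond to denominators of 6551358 and 6576775 reads if the mean is a plain one over 2 libraries, so that a gene at RPKM 1 had about 13.1 reads per kilobase in the sum of both. Intervals given below are 95% Poisson intervals for a gene model of 1 kb at that depth. They cover counting error alone, since several reads can come from 1 molecule and the spread between the replicates was lost in the averaging. Of 20 entries in a list of markers of the embryo at this stage, 15 matched a gene. The entries tbxta, pax2a, egr2b, hbbe1 and shha matched none and were not assessed. All 16 genes that matched were detected, against 46.8% of all genes with a name. They were led by krt4 of the epidermis at 319 RPKM and apoa1a of the yolk layer at 263 RPKM. The neural genes sox19a at 30.3 RPKM and SOX3 at 21.2 RPKM followed. A gene named CPEB1 had 30.5 RPKM and cpeb1a was listed at 0. CPEB1 is taken as cpeb1b, for which RefSeq lists that name as a synonym, and reads from the injected mRNA cannot be told from those of the gene. In RNA from whole embryos, fewer cells with a transcript and less of it per cell cannot be told apart.

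Rab genes were detected more often than the table's genes at large, and most stood under RPKM 5. Of the 66 members 47 (71.2%) were detected, against 46.8% of the 21939 genes with a name and 38.6% of all genes. Of the 59 Rab GTPases 41 (69.5%) were detected. The median over all 59 was 2.18 RPKM, against 0.854 RPKM over all named genes. Over detected genes only, the medians were 3.12 RPKM for the Rab GTPases and 3.17 RPKM for the named genes. The difference in the medians over all genes thus went with a smaller share of Rab GTPases at the bottom. Of the 59 Rab GTPases 18 lay under RPKM 1 and 3 were listed at 0. Of the 21939 named genes 11669 lay under RPKM 1 and 2590 were listed at 0. At RPKM 0.1 or more stood 63 of the 66 members, against 82.6% of the named genes and 70.7% of all genes. At the upper end, 12 Rab GTPases (20.3%) reached RPKM 5 and 6 (10.2%) reached RPKM 10, against 16% and 7.79% of the named genes.

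**Figure D1:**
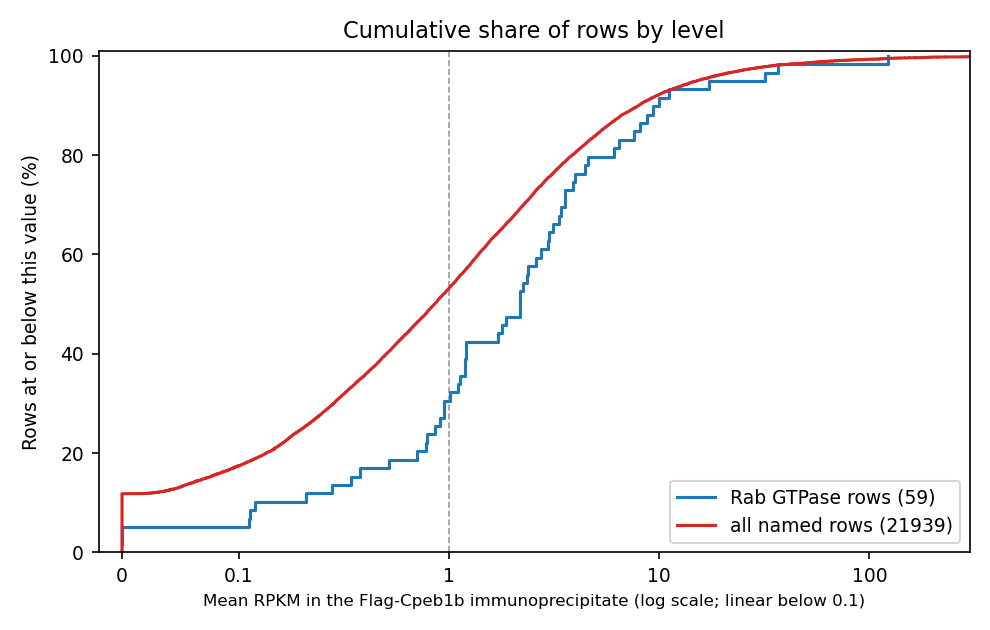
Cumulative share of genes (y axis, %) at or below a given mean RPKM (x axis, log scale above 0.1) for the 59 Rab GTPases (blue) and all 21939 named genes (red), with RPKM 1 dashed. The Rab curve lies below and to the right of the other through the middle of the range, with a median of 2.18 against 0.854 RPKM, and both curves come close together above RPKM 10.

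A single gene, RAB10, stood apart from the family. RAB10 directs vesicles from the trans-Golgi network and recycling endosomes to the plasma membrane, and in polarized epithelia to the basolateral side. It had 122 RPKM (interval 116 to 129), rank 122 of the named genes, about 1607 reads per kilobase over both libraries. It held 34.4% of the RPKM summed over the 59 Rab GTPases. RAB2A followed at 36.6 RPKM (33.4 to 40.05), and RAB10 was 3.34 times as high. The RAB1B gene ENSDARG00000029663 came next at 31.9 RPKM (28.95 to 35.1). These 3 genes held 53.7% of the family's summed RPKM and the 10 highest held 73.96%. In the RefSeq table (GRCz12tu) no other gene overlaps rab10, while ca8 and a long non-coding RNA gene overlap rab2a. Of the 47 members that could be placed there by symbol, 18 have an overlapping gene, among them RAB8A, RAB13, RAB23 and rab11fip1b described below, and reads from such a pair cannot be told apart without strand. The order of neighbouring Rab GTPases is loosely set. Of the 58 steps between neighbours in their whole ranking, 3 separated genes whose intervals did not overlap. Those were the steps from RAB10 to RAB2A, from RAB1B to the higher RAB5A gene, and from that gene to the other RAB5A gene. Neighbours in a ranking are close by construction, so this count does not bear on genes further apart. Overlap of intervals also does not exclude a difference.

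**Figure D2:**
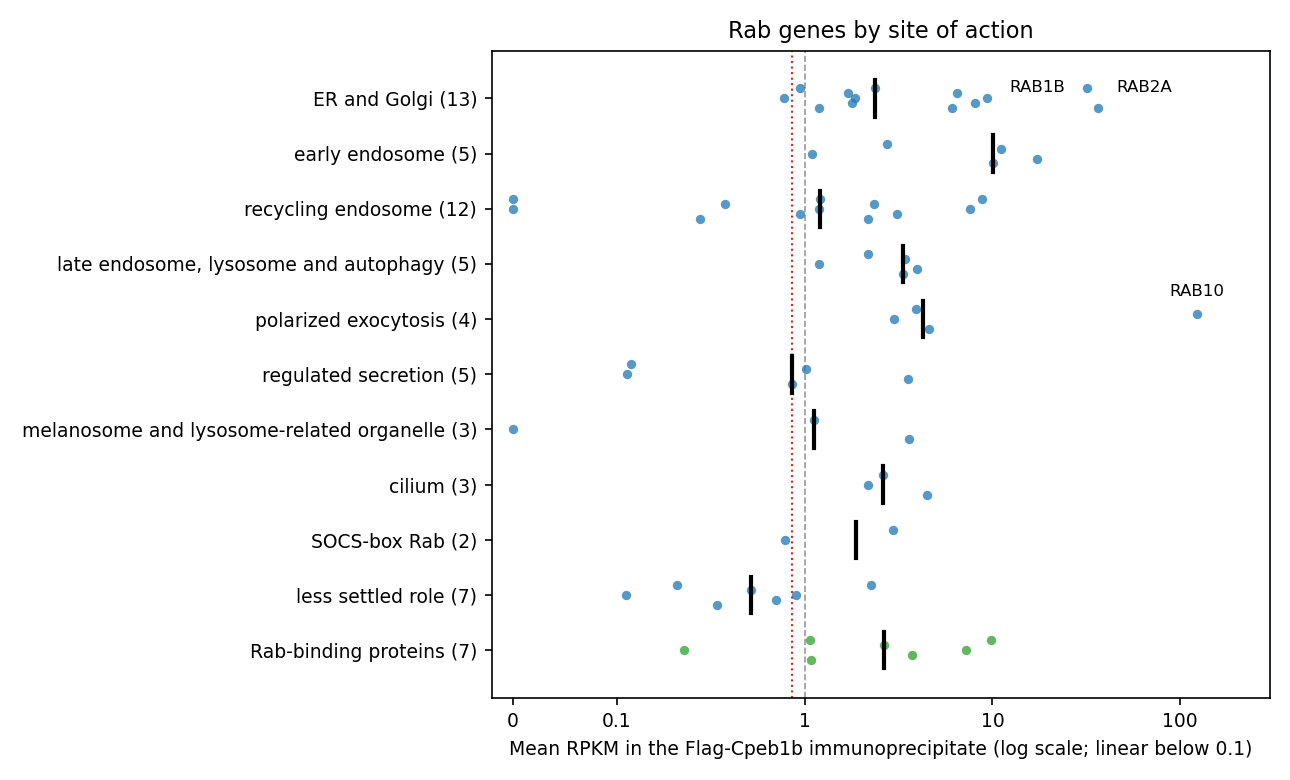
Mean RPKM (x axis, log scale above 0.1) of each Rab gene, 1 point per gene, by the site where its protein acts (y axis, number of genes in brackets), with the 7 Rab-binding proteins in green at the bottom. Black bars are medians, the grey dashed line is RPKM 1 and the red dotted line is the median of all named genes, 0.854 RPKM. RAB10 at 122 RPKM lies far to the right of the 3 other genes of polarized exocytosis, and the early endosome group has the highest median at 10.02 RPKM (6.38 RPKM with the genes of 1 name counted once).

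Rabs of the endoplasmic reticulum (ER) and Golgi formed the largest class, with 11 of 13 genes detected (84.6%, against 46.8% of the named genes). Their median was 2.37 RPKM. They held 30.7% of the family's summed RPKM, or 46.8% when RAB10 is left out. RAB1 proteins drive transport from the ER to the Golgi, and all 4 of their genes were detected. The RAB1B gene had 31.9 RPKM, rab1ba 9.32 RPKM (7.74 to 11.1), rab1aa 6.45 RPKM (5.15 to 7.98) and rab1bb 6.10 RPKM (4.84 to 7.60). RAB1B was thus 3.43 times rab1ba and 5.23 times rab1bb, and rab1ba was 1.53 times rab1bb, with an interval of 1.14 to 2.05 for the ratio. The intervals of rab1aa overlapped those of both rab1ba and rab1bb. RefSeq gives RAB1B as a synonym of both rab1ab and rab1ba, and since rab1ba has a gene of its own in the table, which copy the RAB1B gene is was not settled here. RAB2A, which acts between ER and Golgi and in traffic to lysosomes, was the second highest Rab at 36.6 RPKM. The Golgi Rab gene rab41 had 8.06 RPKM. It stood above both genes named RAB6B, whose protein is a close relative acting in retrograde Golgi traffic, at 1.19 and 0.781 RPKM. No member is named RAB6A, so that isoform was not assessed and RAB6 stands here for RAB6B alone. The rest of the class stood lower, with rab18a (lipid droplets and ER) at 2.37, RAB30 at 1.86, RAB33A at 1.79, RAB33B at 1.71 and RAB43 at 0.942 RPKM. Each of these lay above the median of the named genes, 0.854 RPKM. The class therefore split into RAB1, RAB2A and rab41 at 6.10 RPKM or more and 7 genes at 2.37 RPKM or less.

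Rabs of the early endosome had the highest class median, 10.02 RPKM, and all 5 of their genes were detected (against 46.8% of the named genes). The median was 6.38 RPKM with the genes of 1 name counted once, since 2 of the 5 are named RAB5A, and also 6.38 RPKM without the highest gene, still the highest of the classes. RAB5 proteins control the uptake of vesicles from the plasma membrane and their fusion into early endosomes. The RAB5A gene ENSDARG00000007257 had 17.2 RPKM (15.04 to 19.6) and the RAB5A gene ENSDARG00000018602 had 11.2 RPKM (9.43 to 13.1). The first was 1.54 times the second, with an interval of 1.24 to 1.91 for the ratio. RAB5C had 10.02 RPKM (8.38 to 11.9) and did not stand apart from the lower RAB5A gene, whereas rab5b had 2.75 RPKM (1.93 to 3.80). RAB22A, which acts on early endosomes and in recycling, had 1.10 RPKM. The high median thus came from RAB5A and RAB5C.

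Recycling endosome Rabs were uneven, with 7 of 12 genes detected (58.3%, against 46.8% of the named genes) and a median of 1.20 RPKM. RAB11 proteins return cargo from recycling endosomes to the cell surface and work in lumen and cilium formation. RAB11A had 8.77 RPKM (7.24 to 10.5), RAB11B 3.12 RPKM (2.23 to 4.23) and rab11al 1.20 RPKM (0.685 to 1.96), and rab11bb was listed at 0. RAB11A was 7.29 times rab11al, with an interval of 4.24 to 12.996. RAB35, which sorts cargo for fast recycling at the plasma membrane, had 7.61 RPKM (6.19 to 9.26), close to RAB11A. The RAB14 pair, which acts between Golgi and endosomes, was unequal, with rab14l at 2.35 RPKM and RAB14 at 0.277 RPKM, about 3.64 reads per kilobase. RAB15 had 2.18 RPKM, the epithelial gene rab25a 1.20 RPKM, RAB4A of fast recycling 0.949 RPKM and RAB4B 0.375 RPKM, while rab25b was listed at 0. A value of 0 in a table of means can be a failed estimate, so no ratio is given against those genes.

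The 3 RAB7A genes lay close together, and RAB9A and RAB24 stood lower. With them, Rabs of the late endosome, lysosome and autophagy made up 5 genes. Each was detected, against 46.8% of the named genes. The class median was 3.32 RPKM. It was 2.18 RPKM with the genes of 1 name counted once, since 3 of the 5 are named RAB7A. RAB7A directs late endosomes and autophagosomes to fuse with lysosomes, and its 3 genes had 3.96 (ENSDARG00000020497), 3.40 (ENSDARG00000021287) and 3.32 RPKM (ENSDARG00000087243). The ratios between them were 1.03 to 1.19, and the interval of each ratio included equal levels. Together the 3 genes summed to 10.7 RPKM, against 41.1 RPKM for the 4 RAB5 genes. RAB9A, which returns receptors from late endosomes to the Golgi, had 2.18 RPKM, and RAB24, an atypical Rab linked to autophagy, had 1.20 RPKM.

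The class of polarized exocytosis had all 4 genes detected (against 46.8% of the named genes) and a median of 4.25 RPKM. Its genes other than RAB10 lay between 3.003 and 4.61 RPKM, against a median of 3.17 RPKM over detected named genes. RAB8A, which carries cargo to the apical membrane and the primary cilium, had 4.61 RPKM (3.52 to 5.92), RAB13, which works at tight junctions, 3.90 RPKM (2.90 to 5.12) and RAB8B 3.003 RPKM (2.14 to 4.10). The intervals of these 3 overlapped. RAB8, RAB10 and RAB13 proteins are close relatives with shared regulators, and RAB10 held 34.4% of the family's summed RPKM, against 1.30% for RAB8A.

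Rabs of regulated secretion stood near the named genes at large, with 2 of 5 genes detected (40%, against 46.8% of the named genes). Their median was 0.854 RPKM, equal to that of the named genes at this rounding, against 2.18 RPKM over all 59 Rab GTPases. RAB3 proteins control the release of synaptic vesicles and secretory granules. The RAB3A gene ENSDARG00000043835 had 3.56 RPKM (2.61 to 4.73) and the RAB3A gene ENSDARG00000056347 0.854 RPKM (0.430 to 1.52), a ratio of 4.16 with an interval of 2.18 to 9.14. The exocrine granule gene rab3da had 1.02 RPKM, RAB3C 0.119 RPKM and RAB27B, which docks secretory granules, 0.113 RPKM. The last 2 values correspond to about 1.56 and 1.48 reads per kilobase, so no order between them can be read. The class held 1.59% of the family's summed RPKM.

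In the cilium class all 3 genes were detected, against 46.8% of the named genes. RAB23, a negative regulator of Hedgehog signalling in the mouse, had 4.46 RPKM (3.39 to 5.75), rab34b 2.60 RPKM and RAB34, which is needed for the early steps of cilium formation in mammals, 2.18 RPKM. Among Rabs of melanosomes and related organelles, rab38c had 3.58 RPKM, the RAB32 gene ENSDARG00000029036 had 1.127 RPKM and the RAB32 gene ENSDARG00000041165 was listed at 0. RAB40C, a Rab with a SOCS box that recruits ubiquitin ligase subunits, had 2.95 RPKM and RAB40B 0.782 RPKM. The 7 genes grouped as having a less settled role had the lowest median of the 10 classes, 0.518 RPKM. Of these 7 genes 1 was detected (14.3%), RAB12 at 2.25 RPKM. The others were RAB36 (0.903 RPKM), RAB20 (0.701 RPKM), rab44 (0.343 RPKM), rab42a (0.209 RPKM) and the genes named RAB39B (0.518 and 0.112 RPKM).

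**Figure D3:**
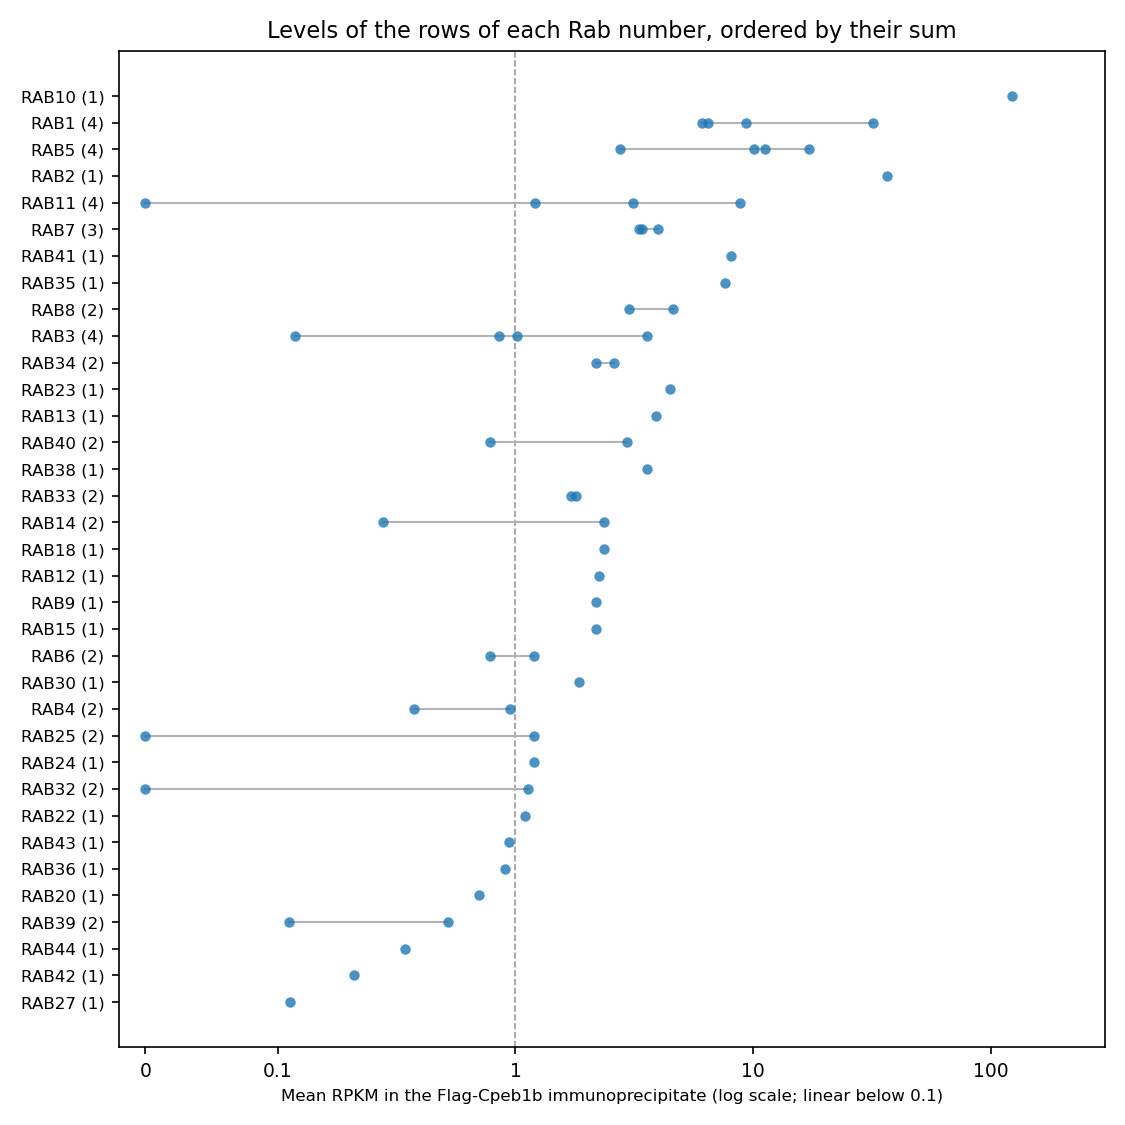
Mean RPKM (x axis, log scale above 0.1) of the genes of each of the 35 Rab numbers (y axis, number of genes in brackets), ordered by their summed RPKM. Points are genes, grey lines join genes of 1 number and the dashed line is RPKM 1. RAB7 genes lie within 3.32 to 3.96 RPKM, whereas RAB3 genes run from 0.119 to 3.56 RPKM and RAB11 genes from 0 to 8.77 RPKM.

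Copies of the same Rab were thus alike for some numbers and not for others. The 59 genes fall under 35 Rab numbers, 15 of them with several genes, and 27 numbers had at least 1 detected gene. Several genes give a number more than 1 way to be counted, so the 27 cannot be set against the 46.8% of single named genes. The sum reached RPKM 10 for 6 numbers. These were RAB10 at 122, RAB1 at 53.8, RAB5 at 41.1, RAB2 at 36.6, RAB11 at 13.1 and RAB7 at 10.7 RPKM. RAB34 and rab34b differed 1.19-fold, within the counting interval of 0.693 to 1.99, and RAB33A and RAB33B had 1.79 and 1.71 RPKM. The counting intervals of the ratio excluded equal levels for the copies of RAB5A, RAB3A, RAB14 and RAB1B and for RAB11A against rab11al, and included them for the RAB6B, RAB7A and RAB39B copies. How reads that match several copies were assigned is not given in the sources used here, so values of near-identical copies are uncertain.

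The 7 Rab-binding proteins had 6 members detected (85.7%, against 46.8% of the named genes) and a median of 2.66 RPKM. The highest was rab11fip1b at 9.81 RPKM (8.19 to 11.7), which encodes a RAB11 effector of the recycling endosome. Its copy rab11fip1a had 3.72 RPKM (2.75 to 4.92). The effector gene rab11fip3, whose human product works at the cleavage furrow in cytokinesis, had 2.66 RPKM, and RAB11FIP4 0.229 RPKM. RAB5IF, named for an interaction with RAB5, had 7.19 RPKM. RAB3GAP2, a subunit of the RAB3 GAP complex, had 1.08 RPKM and the exchange factor gene RAB3IL1 1.07 RPKM.

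Set beside 2 other families of small GTPases, the Rab family held the highest single gene. The medians were 2.18 RPKM for the 59 Rab GTPases and 2.56 RPKM for 32 Arf and Arl genes, which act in coat assembly and cilia. For 22 Ras, Rap and Ral genes, which act in growth signalling and adhesion, the median was 2.80 RPKM. The 22 include rhebl1, rheb, rasd1, RIT1 and the genes named DIRAS1, which are counted with the Ras genes here. Over detected genes only, the medians were 3.12, 2.83 and 3.94 RPKM in the same order, so that the place of the Rabs depended on the filter. The detected shares were 69.5%, 81.2% and 77.3%. RPKM 10 was reached by 6 of the 59 Rabs (10.2%), by 5 of the 32 Arf and Arl genes (15.6%) and by 2 of the 22 Ras, Rap and Ral genes (9.09%). RAB10 at 122 RPKM was first, ahead of RAB2A at 36.6 RPKM, RAB1B at 31.9 RPKM and kras at 23.95 RPKM. The highest genes of the Arf family were ARL3 at 21.9, ARF5 at 19.2, arf2b at 14.8 and arf1 at 12.6 RPKM. Below kras, rhebl1 had 10.3, rap1aa 9.55 and rap1b 8.12 RPKM.

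Every gene matched on the list for lipid attachment, escort and recycling of Rabs was detected, against 46.8% of the named genes. Of 6 list entries 5 matched a gene, and these 5 genes, all detected, had a median of 2.44 RPKM. GDI2, the inhibitor that extracts GDP-bound Rabs from membranes, had 19.1 RPKM. RABGGTB and RABGGTA, the subunits of the enzyme that attaches the lipid, had 6.58 and 2.44 RPKM, and the escort protein gene CHM had 1.73 RPKM. RABIF, which is on the list but is not one of these lipid, escort or inhibitor genes, had 1.04 RPKM, close to the threshold.

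**Figure D4:**
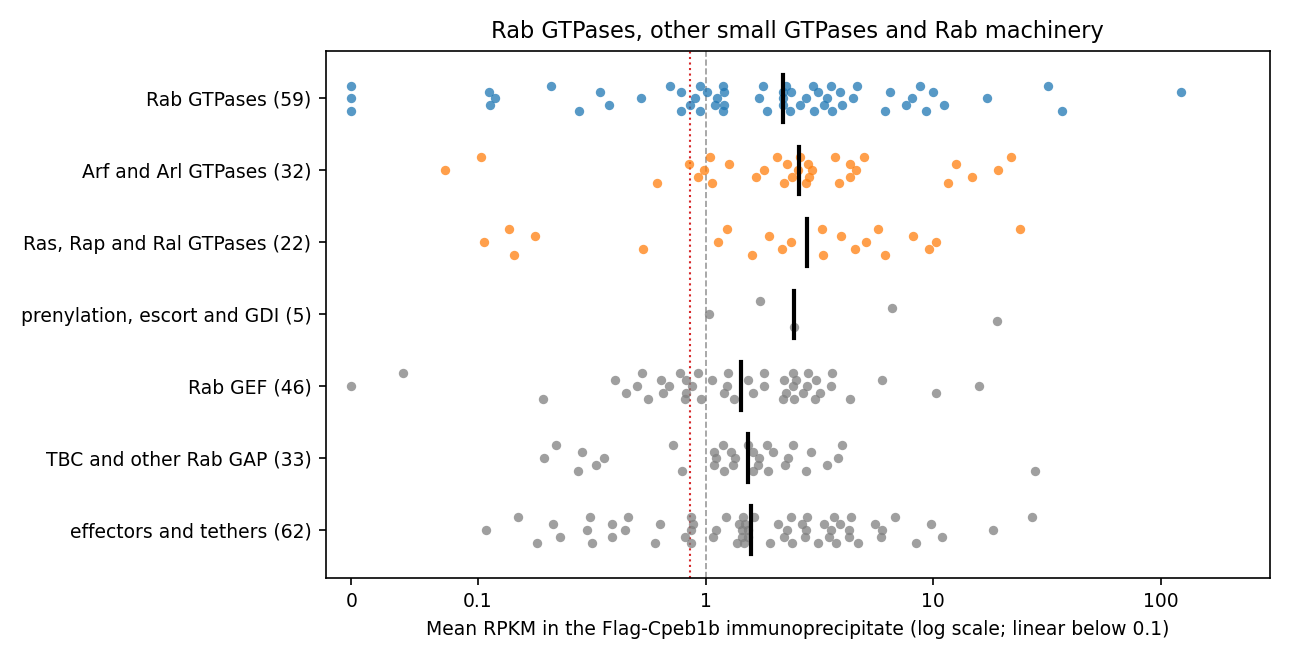
Mean RPKM (x axis, log scale above 0.1) of the 59 Rab GTPases (blue), other small GTPase families (orange) and lists of Rab machinery (grey), 1 point per gene with the number of genes in brackets. Black bars are medians, the grey dashed line is RPKM 1 and the red dotted line is the median of all named genes. RAB10 at 122 RPKM is the farthest point to the right, and the Rab median of 2.18 RPKM lies left of those of the Arf and Arl genes (2.56) and the Ras, Rap and Ral genes (2.80).

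Regulators and effectors were detected more often than the named genes at large (46.8%). On the exchange factor and GAP lists fewer genes reached RPKM 5 than the 16% of the named genes. The effector share of 14.5% was close to that 16%. The exchange factor list also holds SGSM3 (0.958 RPKM), although SGSM1 and SGSM2 stand on the GAP list. Of the 46 genes on the exchange factor list 28 were detected (60.9%). Their median was 1.43 RPKM and 3 of them (6.52%) reached RPKM 5. These were DENND5B at 15.9 RPKM, dennd2db at 10.2 RPKM and CCZ1 at 5.93 RPKM, followed by TRAPPC3 at 4.30 RPKM. DENN-domain proteins activate several Rabs, and CCZ1 forms the RAB7 exchange factor with MON1. MON1A had 0.820 RPKM, and the 2 genes named MON1B had 1.62 and 0.0409 RPKM. For RAB5, the exchange factor gene RABGEF1 had 2.83 RPKM and GAPVD1 1.21 RPKM. Of the TRAPP complex, which activates RAB1, 7 of 11 genes were detected, the highest at 4.30 RPKM, and trappc2 was listed at 0. The DENND4 proteins activate RAB10, and of their 3 list entries dennd4a alone matched a gene, at 0.874 RPKM.

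Of the 33 genes on the GAP list, which leaves out SGSM3, 25 were detected (75.8%, against 46.8% of the named genes). Their median was 1.54 RPKM and 1 gene (3.03%) lay above RPKM 5. That gene was EVI5L at 27.9 RPKM, whose human product acts on RAB10 and RAB23, and EVI5 was next at 3.96 RPKM, TBC1D17 had 3.81 RPKM and TBC1D8B 3.43 RPKM. TBC1D4, which keeps RAB10 inactive in mammalian fat cells until insulin acts, had 1.34 RPKM, and its relative TBC1D1 had 1.86 RPKM. Of 62 effector and tether genes, 4 of which are also members by name, 43 were detected (69.4%). The median over the 62 was 1.58 RPKM and 9 of them (14.5%) reached RPKM 5. The 4 highest were the Golgi proteins GOLGA5 (27.1 RPKM) and GORASP2 (18.3 RPKM), the ER exit site protein mia3 (10.9 RPKM) and rab11fip1b. Of RAB5 effectors, EEA1 had 4.66, APPL1 3.65, RBSN 3.54, RABEP1 2.79, rabep2 2.75 and APPL2 1.48 RPKM. VPS8 and OCRL of the same list, whose products also bind RAB5, were not detected, at 0.862 and 0.310 RPKM. MICAL-like proteins bind RAB8, RAB13 and RAB35, and micall1a had 8.37 RPKM and micall2b 5.91 RPKM, against 0.181 RPKM for the gene named MICALL1. The exocyst, which tethers secretory vesicles to the plasma membrane, was represented by 8 genes, of which 7 were detected. Their median was 1.95 RPKM and EXOC5 was highest at 5.54 RPKM. Tethers of endosomes and lysosomes (HOPS and CORVET subunits) were detected for 5 of 7 genes and their median was 1.45 RPKM. Of the synaptotagmin-like effectors of RAB27 2 of 5 (40%) were detected (median 0.814 RPKM). Of the class V myosins, motors that bind RAB11, 1 of 3 (33.3%) was detected (median 0.443 RPKM). Both shares lay under that of the named genes and rest on few genes. RABEP1, rabep2, RBSN, APPL1, APPL2, EEA1, VPS8, OCRL and EXOC5 were named after their values were seen, for their known link to a Rab described above. The same holds for the DENND4, MON1, TBC1D1, TBC1D4, MICALL, GAPVD1, RABGEF1 and trappc2 genes. The SGSM genes were named for their place in the lists.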

How the data were processed

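RNA precipitated with Flag-Cpeb1b from zebrafish embryos was analysed from 1 table of the authors' mean RPKM values over 2 replicates; the table's name gives the unit and the averaging, and it has no header. The deposited RPKM values were used as they are. Per the submitters' processing notes, the build was Zv9 and the tools included TopHat2 2.1.1 and Bowtie, bedtools 2.16.2, MACS2 2.0.10, Trimmomatic 0.36, cutadapt 1.13 and FastQC. The sources used here do not say what each tool did, which gene models and lengths were used, or whether strand was.

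Names came from a table that pairs Ensembl identifiers with symbols (21939 of 33737 identifiers, 65.0%). RefSeq names (GRCz12tu) served for synonyms. Overlapping neighbours were found from RefSeq gene positions, for members placed there by symbol, and are given as names only. Members, classes and lists were chosen with earlier results of these data known. List entries matched a symbol in any case, also with 1 added letter a to d. Every member was named, with the 4 highest genes of each list, and exceptions are stated where they occur. Some genes of the lists are not reported here.

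Depth came from values between 0.4 and 2 RPKM shared by at least 3 rows. Steps that gave whole lengths within 0.002 accounted for 135 of 171 such rows. Intervals are exact Poisson, or exact binomial for ratios. With the replicates averaged, no SD, p-value or test between samples could be had. Other detection thresholds, 1 row per symbol, detected rows only, removal of the highest row and a pseudocount of 1 were tried. Python 3.11.15, pandas 2.3.3 and scipy 1.17.1 were used.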

Additional observations from a re-analysis of the deposited data

How the results depend on the processing

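The number of the 66 members detected was 47 at RPKM 1, 63 at RPKM 0.1 and 14 at RPKM 5. The shares of the named genes were 46.8%, 82.6% and 16% in the same order. The RPKM summed over the Rab GTPases was 356, and 233 without RAB10, a setting chosen after seeing the data. A class median is called moved where it left the counting interval of 1 gene of 1 kb at that level. That interval is not the error of a median over several genes. Keeping detected genes only cannot lower a median, and it left 1 gene each in the SOCS-box and less settled classes. Class medians moved in this sense as follows. Over detected genes only, ER and Golgi had 6.10 RPKM, recycling endosome 2.35, regulated secretion 2.29, melanosome 2.35, SOCS-box 2.95 and the less settled class 2.25 RPKM. With 1 row per symbol, ER and Golgi had 4.23, early endosome 6.38, late endosome 2.18 and melanosome 2.35 RPKM. Without the highest gene, early endosome had 6.38, melanosome 0.563 and SOCS-box 0.782 RPKM. The early endosome median was the highest of the 10 classes under each of these 3 settings. A pseudocount of 1 RPKM changed the rab14l to RAB14 ratio to 2.62, against 8.47. At RPKM 5 the genes detected numbered 2 of 5 (40%) on the prenylation and GDI list, against 16% of the named genes. They numbered 3 of 46 (6.52%) on the exchange factor list and 1 of 33 GAPs (3.03%). They also numbered 9 of 62 effectors (14.5%), 5 of 32 Arf and Arl genes (15.6%) and 7 of 22 Ras, Rap and Ral genes (31.8%). At RPKM 0.1 they numbered 44 of 46 on the exchange factor list, SGSM3 included, against 82.6% of the named genes. No paired analysis was possible because both samples belong to 1 group, and leaving out a replicate was not possible because only their mean is in the table. Depth limits genes of low level: at RPKM 1 a gene model of 1 kb would have about 13.1 reads (Poisson error 27.6%, against 8.73% at RPKM 10).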
